A study of Mus musculus with 4 samples.

Results

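The proteasome is the barrel-shaped protease that degrades ubiquitin-tagged proteins, and the transcripts of its subunits were followed here in cultured melanocytes, the pigment cells of the skin, from mice that had or lacked AhR, the aryl hydrocarbon receptor. Members were the genes whose symbol in the platform annotation was Psma, Psmb, Psmc, Psmd, Psme or Psmf followed by a number only, without the interferon-inducible Psmb8, Psmb9 and Psmb10. That rule found 39 genes with 75 probe sets, of 12393 genes named by a single symbol. Each gene was read from the probe set with the highest mean signal over the 4 arrays. A probe set shared by Psme2 and Psme2b named no single gene and was not used. The knockout group was 2 female mice of strain AhRtm1Bra, in which exon 2 of Ahr is deleted, and the wild-type group was 2 female C57Bl/6 mice. Each array holds RNA from an individual mouse, so n is 2 in both groups. Epidermal cells from tail skin of all 4 mice were cultured in a melanocyte medium without serum until 6 to 8 weeks had passed, and the labels name no further treatment. AhR is a transcription factor activated by dioxins and by products of ultraviolet light, and the arrays asked which transcripts differ when it is missing.

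The proteasome has a core and a cap. In the core, outer rings of alpha subunits gate the entry of substrates and inner rings of beta subunits hold the protease sites, of which Psmb5, Psmb6 and Psmb7 carry the catalytic threonines. In the cap, a base with a ring of ATPases (the Psmc proteins) unfolds substrates and a lid removes their ubiquitin. Psme proteins form alternative activators that bind the end of the core, and Psmf1 is known as an inhibitor of the core in vitro. In mammals the transcription factor NRF1, encoded by Nfe2l1, raises proteasome genes together through antioxidant response elements when proteasome activity is short.

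Signals are linear intensities scaled by the authors to the same trimmed mean on every array, with medians between 89.5 and 98.4 over 22690 probe sets, and arrays carry no count depth. The targeted gene read 241 and 843 in AhR knockout 1 and 2, and 825 and 874 in wild type 1 and 2, at the brighter Ahr probe set. Its place relative to exon 2 was not analysed here, so it checks no label. The log2 difference, knockout minus wild type, was -0.88 ± 0.53 (SE from limma) with limma adjusted p = 0.37. The knockout 2 array stood apart in its controls. Gapdh signal at the 3' end over that at the 5' end was 1.98 in knockout 1 and 11.9 in knockout 2, against 2.13 and 2.85 in the wild-type arrays. Melanocyte markers were present on every array, with 6 of 7 tested higher in knockout and summed signals of 79485 and 106155 in knockout against 67261 and 53935 in wild type. All 7 endothelial markers were lower, with summed signals of 6550 and 1934 in knockout against 13296 and 16399 in wild type. All 4 tested keratinocyte markers were higher in their knockout mean, with sums of 1403 and 305 in knockout against 198 and 225 in wild type. Only Krt6a separated the groups, and Krt5, Krt14 and Krt10 overlapped. Krt14 read 539 and 10.9 in knockout 1 and 2, against 30.8 and 11.4 in wild type. Fibroblast markers summed to 441 and 307 in knockout, against 790 and 1026 in wild type, with 2 of 3 tested lower and Col3a1 past the test. Leukocyte markers summed to 3803 and 3394 in knockout, against 1691 and 1693 in wild type, with 3 of 4 tested higher. The 2 tested Schwann and glial markers split, at sums of 3268 and 5954 in knockout and 1669 and 1911 in wild type. No marker of any list was at 0, but detection calls were not used, so this does not show that each was expressed. Some were too dim to test, such as Krt1 at 3.89 and 5.44 in knockout and 0.857 and 3.63 in wild type. The part of these cell types in the values below was not tested.

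No proteasome gene passed the test for a difference between AhR knockout and wild-type melanocytes. Of the 39 members 38 were bright enough to test, and 22 of these were higher and 16 lower in knockout, with log2 differences from -1.21 for Psme4 to 0.84 for Psmb6. In limma with Benjamini-Hochberg adjustment over all 7436 tested genes, 0 members had an adjusted p under 0.05, and the smallest was 0.19. Over all tested genes 0.955% passed that threshold, 0.202% as higher and 0.753% as lower. At an unadjusted p under 0.05 there was 1 member higher (Psmb6) and 1 lower (Psme4), or 5.26% of members, against 20.6% of all tested genes (7.68% higher and 12.9% lower). The knockout and wild-type arrays did not overlap for 18 members, 12 higher and 6 lower. That is 47.4% of members, against 55.4% of all tested genes (28.7% higher and 26.7% lower). In bulk RNA, fewer cells of a type and less RNA per cell cannot be told apart.

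Over all members, the median size of the differences was also smaller than over all tested genes. The median absolute log2 difference was 0.37 over the 38 members and 0.47 over all tested genes. Proteasome transcripts are bright, with 21 of the 38 in the brightest of 5 classes of equal size by mean signal. In that class the members' median absolute difference was 0.37, against 0.45 for all its genes. In the next class, with 11 members, it was 0.54 against 0.51, and in the middle class, with 5 members, 0.31 against 0.47. The smaller size thus did not hold in every class. The signed median over members was 0.11, with 0.14 for knockout 1 and 0.070 for knockout 2, each set against the wild-type mean. Over all tested genes it was 0.0055. Arrays were simulated with the same number of genes and mice. Their noise was independent between genes, so they held no effect shared across an array, unlike what real arrays may hold. In them limma recovered 18.6% of 2-fold changes and 92.6% of 4-fold changes. Differences of the size seen in the proteasome genes can thus be missed, and failing the test does not show that they are absent.

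**Figure D1:**
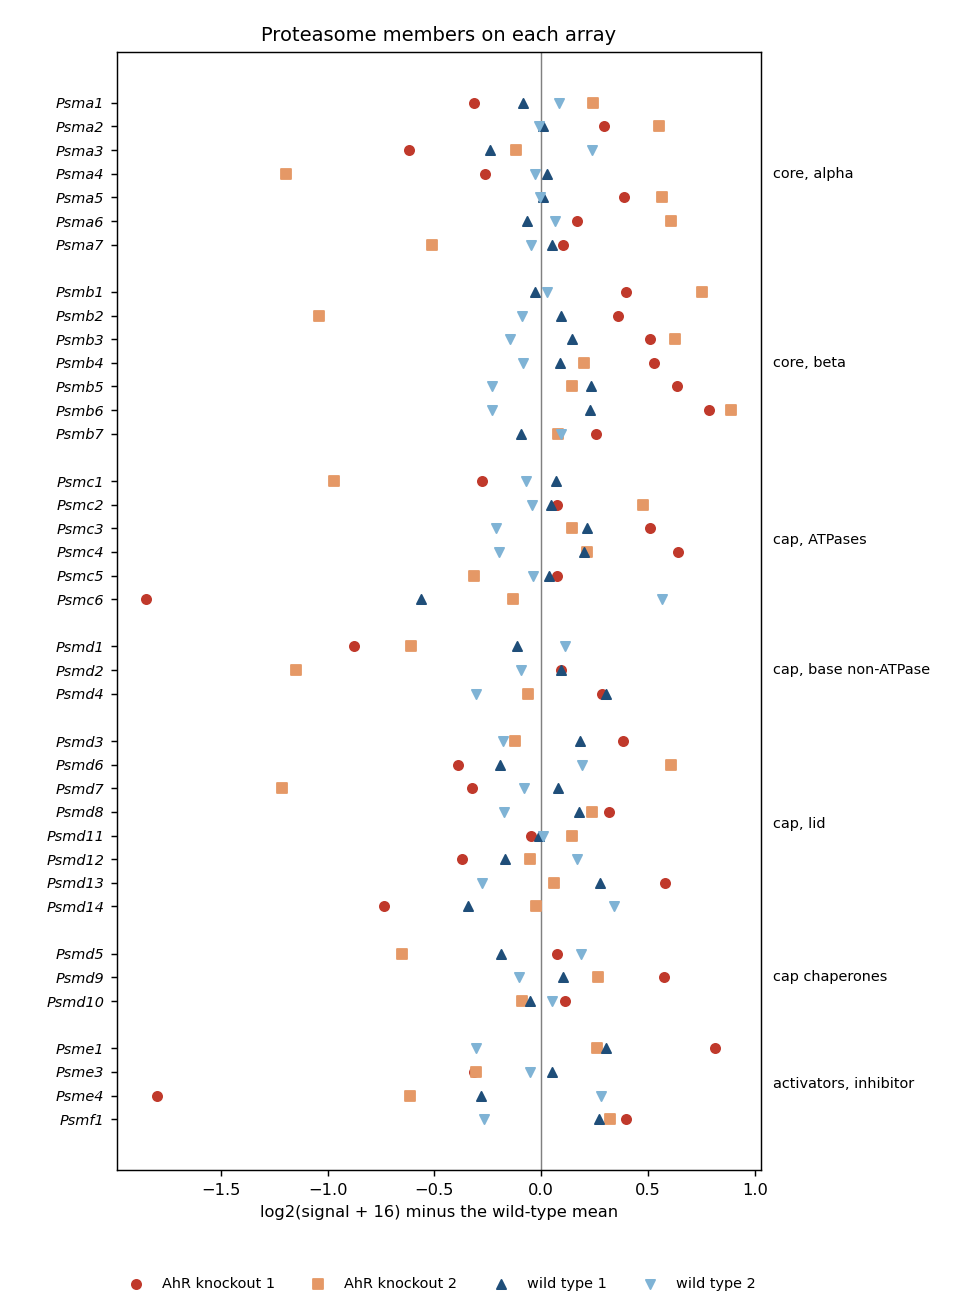
Value of each of the 38 tested proteasome genes on each array as log2(signal + 16) minus the mean of the wild-type arrays (horizontal axis), with circles and squares for AhR knockout 1 and 2 and triangles for wild type 1 and 2. Most beta subunits lie to the right of 0 in both knockout arrays, Psme4 and Psmd1 lie to the left in both, and Psma4, Psmb2, Psmc1, Psmd2 and Psmd7 are lowest in knockout 2.

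Beta subunits of the core had the highest median of any group of members. Of the 7 tested, 6 were higher and 1 lower. Their median log2 difference was 0.39, with 0.51 in knockout 1 and 0.20 in knockout 2. Psmb6, which carries the caspase-like site, read 3348 and 3595 in knockout, against 2267 and 1646 in wild type. Both knockout arrays lay above both wild-type arrays. The log2 difference was 0.84 ± 0.34 (SE from limma, n = 2 per group), a 1.79-fold higher level, with limma adjusted p = 0.21. It was the only member with an unadjusted p under 0.05 in the upward direction, where the share of all tested genes was 7.68%.

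Psmb3, a structural beta subunit without a protease site, read 7204 and 7835 in knockout, against 5596 and 4577 in wild type. Its log2 difference was 0.57 ± 0.29 with limma adjusted p = 0.29. Psmb1, another such subunit, read 3465 and 4445 in knockout and 2575 and 2682 in wild type. These groups did not overlap for Psmb3 and Psmb1, and Psmb1 differed by 0.58 ± 0.32 with limma adjusted p = 0.34. Psmb4, also without a protease site, read 7882 and 6266 in knockout and 5788 and 5136 in wild type, a log2 difference of 0.37. Both knockout arrays lay above both wild-type arrays there too.

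The other catalytic subunits overlapped between genotypes as deposited. Psmb5, with the chymotrypsin-like site that proteasome inhibitors such as bortezomib block, read 6324 and 4495 in knockout and 4770 and 3457 in wild type. Knockout 2 lay between the wild-type arrays, and the log2 difference was 0.39 ± 0.33. Psmb7, with the trypsin-like site, read 1669 and 1476 in knockout and 1307 and 1488 in wild type, a difference of 0.17. After quantile normalization Psmb7 separated upward at a difference of 0.24. Psmb2 was the exception in direction: it read 2599 and 976 in knockout and 2155 and 1900 in wild type. Its difference of -0.34 came from knockout 2, since knockout 1 lay above both wild-type arrays, and it was 0.36 with knockout 1 as the only knockout array.

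Alpha subunits, which form the outer rings of the core, were split. Of the 8 members Psma8, known as the alpha subunit of the testis proteasome, was too dim to test, at 26.2 and 64.5 in knockout and 21.4 and 17.8 in wild type. Of the 7 tested, 3 were higher and 4 lower, and the median of their log2 differences was -0.035. Set against the wild-type mean, the alpha median was 0.10 in knockout 1 and 0.24 in knockout 2. The 3 higher ones separated the groups. Psma5 read 9009 and 10210 in knockout, against 6928 and 6854 in wild type, with a log2 difference of 0.48 ± 0.27 and limma adjusted p = 0.33. Psma2 read 3786 and 4533 in knockout, against 3104 and 3062 in wild type, a difference of 0.42. Psma6 read 9539 and 12968 in knockout, against 8119 and 8888 in wild type, a difference of 0.39.

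Psma4 went the other way, at 936 and 482 in knockout against 1148 and 1105 in wild type, with a log2 difference of -0.73 ± 0.41 and limma adjusted p = 0.34. Both knockout arrays lay below both wild-type arrays, and the size came mostly from knockout 2. Without knockout 1 the difference was -1.20 and passed as deposited, with limma adjusted p = 0.037 (0.11 after quantile normalization), in a fit where 11.1% of all tested genes passed as lower. Psma3 read 3478 and 4924 in knockout and 4530 and 6325 in wild type, so that array 2 was the brighter in both genotypes and the groups overlapped (-0.37). Psma7 differed by -0.20 and Psma1 by -0.035, both with overlapping groups.

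In the cap, ATPases of the base had no common direction. The 6 ATPases gave 3 higher and 3 lower, and the median was 0.078. Psmc6 had the lowest of these differences, at -0.99 ± 0.59 with limma adjusted p = 0.36. It read 268 and 917 in knockout and 675 and 1497 in wild type, so the wild-type arrays differed from each other more than 2-fold and knockout 2 lay between them. A second Psmc6 probe set gave the same order, with 213 and 611 in knockout and 504 and 1041 in wild type. Psmc6 passed without knockout 2, at -1.85 with limma adjusted p = 5.538e-04, in a fit where 10.8% of all tested genes passed as lower. Psmc1 read 1557 and 957 in knockout, against 1986 and 1803 in wild type. Its groups did not overlap, and the difference was -0.63 ± 0.38. Psmc4 read 6164 and 4575 in knockout, against 4527 and 3432 in wild type, a difference of 0.43, also without overlap. Psmc3 differed by 0.33, Psmc2 by 0.28 and Psmc5 by -0.12.

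The 3 base subunits without ATPase activity had the lowest median of the groups, -0.53, with 0.093 in knockout 1 and -0.61 in knockout 2. Psmd1, a large scaffold of the base, read 1045 and 1263 in knockout, against 1788 and 2088 in wild type. Both knockout arrays lay below both wild-type arrays, with a log2 difference of -0.74 ± 0.35 and limma adjusted p = 0.27. Psmd2, the scaffold that docks shuttle proteins, read 3657 and 1539 in knockout and 3659 and 3211 in wild type. That difference of -0.53 came from knockout 2 alone: knockout 1 equalled wild type 1 within 3 signal units. Without knockout 1 Psmd2 differed by -1.15 and passed as deposited, with limma adjusted p = 0.019 (0.052 after quantile normalization). Psmd4, a ubiquitin receptor, read 2932 and 2298 in knockout and 2968 and 1941 in wild type, with overlapping groups and a difference of 0.11.

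Lid subunits went both ways, with 5 of 8 higher, 3 lower, a median of 0.078 and a range from -0.77 to 0.32. Set against the wild-type mean, the lid median was -0.19 in knockout 1 and 0.017 in knockout 2. After quantile normalization 3 lid subunits were higher and 5 lower. Psmd7, partner of the deubiquitinating subunit, read 419 and 219 in knockout, against 560 and 499 in wild type, a log2 difference of -0.77 ± 0.41 with limma adjusted p = 0.31. It was the only lid gene with both knockout arrays below both wild-type arrays, and without knockout 1 it passed at -1.21 with limma adjusted p = 0.032 as deposited (0.074 after quantile normalization). Psmd14, the metalloprotease that cuts ubiquitin from substrates, read 1548 and 2548 in knockout and 2043 and 3291 in wild type, so the groups overlapped at a difference of -0.38. Psmd8 read 4139 and 3912 in knockout, against 3745 and 2936 in wild type, a difference of 0.28 and the only lid gene separated upward. Psmd13 and Psmd12 differed by 0.32 and -0.21, and Psmd3, Psmd6 and Psmd11 by 0.13, 0.11 and 0.047, all with overlap.

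Among the chaperones that assemble the base, 2 of 3 were higher. Psmd9 read 429 and 343 in knockout, against 305 and 262 in wild type, a log2 difference of 0.42 ± 0.36. Psmd5 differed by -0.29 and Psmd10, also known as the oncoprotein gankyrin, by 0.010, both with overlapping groups.

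Psme4 gave the largest difference of all members. It encodes PA200, a nuclear activator of the core that is known for its part in the breakdown of acetylated histones and in DNA repair. Its brightest probe set read 428 and 996 in knockout, against 1259 and 1864 in wild type. Both knockout arrays lay below both wild-type arrays, by a log2 difference of -1.21 ± 0.46 that makes the level 2.31-fold lower, with limma adjusted p = 0.19. At the 2 other Psme4 probe sets both knockout arrays were also below both wild-type arrays. The second read 254 and 329 in knockout, against 666 and 1038 in wild type, and the third read 81.4 and 59.0 in knockout, against 193 and 216 in wild type. Log2 differences of the 3 probe sets lay between -1.47 and -1.21. These probe sets share the RNA of the same 4 mice and are no replicates. Without knockout 2, Psme4 differed by -1.80 and passed, with limma adjusted p = 6.352e-04; in that fit 10.8% of all tested genes passed as lower. Without knockout 1 it differed by -0.61.

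The remaining activators differed less. Psme1, an interferon-inducible subunit of the PA28 activator, read 1887 and 1282 in knockout and 1320 and 859 in wild type, a log2 difference of 0.54 ± 0.39 with overlapping groups. Psme3, the nuclear form of that activator, read 364 and 366 in knockout, against 473 and 440 in wild type, a difference of -0.31 without overlap. Psmf1 read 614 and 581 in knockout, against 560 and 380 in wild type, a difference of 0.36 without overlap, and its 4 probe sets were all higher.

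Core and cap were then set against each other. Among the 14 tested core subunits 9 were higher and 5 lower, at a median of 0.38 on the log2 scale. Among the 17 cap subunits 9 were higher and 8 lower, at a median of 0.047. Over all tested genes 50.3% were higher. Taken within each array, the median log2 level of the core genes stood above that of the cap genes by 0.78 and 1.53 in knockout 1 and 2, against 0.47 and 0.45 in wild type 1 and 2. This gap was wider in both knockout arrays, by 0.70 on average, and widest in knockout 2, where Gapdh had its highest 3' over 5' signal. The part of that control in the gap was not tested. The gap depends on which genes fall in the middle of each list, and the medians of the genes' own differences, 0.38 and 0.047, lie closer together than 0.70. With 2 arrays against 2, an exact permutation test cannot give a p below 0.33, and no test of the gap is given. It was 0.18 with the mean of each gene's probe sets and 0.59 with every probe set.

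Quantile normalization gives every array the same distribution of values. It brought the median of the genes' own differences down more for the core than for the cap. The core median was 0.19 and the cap median -0.073 after it, and the median over all 38 members was 0.036. The median of all tested genes was 0.066 on that scale. The count of members higher was 21, with 17 lower, and 53.8% of all tested genes were higher. Beta subunits kept their count, at 6 of 7 higher with a median of 0.29 (0.41 in knockout 1 and 0.21 in knockout 2). Alpha subunits had a median of 0.023 and lid subunits one of -0.099. Psmb6 and Psme4 differed by 0.83 and -1.11 on this scale, and they were again the members with an unadjusted p under 0.05, while 0 passed limma with adjustment. For all tested genes the share at an unadjusted p under 0.05 was 20.5% (9.48% higher and 11.1% lower), and 0.35% passed with adjustment (0.0941% higher and 0.256% lower). The genotypes did not overlap for 10 members higher and 8 lower, against 56% of all tested genes (32.3% higher and 23.7% lower). Psma6, Psmb4, Psmc2, Psmc4 and Psmd8, separated upward as deposited, overlapped on this scale, so that 0 cap subunits separated upward. Psmb7, Psmd10 and Psme1 overlapped as deposited and separated upward here, and Psma3 and Psmd11 overlapped as deposited and separated downward here. The within-array gap between core and cap was 0.78 and 1.35 in knockout, against 0.50 and 0.48 in wild type. On that within-array measure, knockout minus wild type, the core was 0.47 as deposited and 0.41 here. The cap was -0.23 as deposited and -0.16 here, so it was not brought down.

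**Figure D2:**
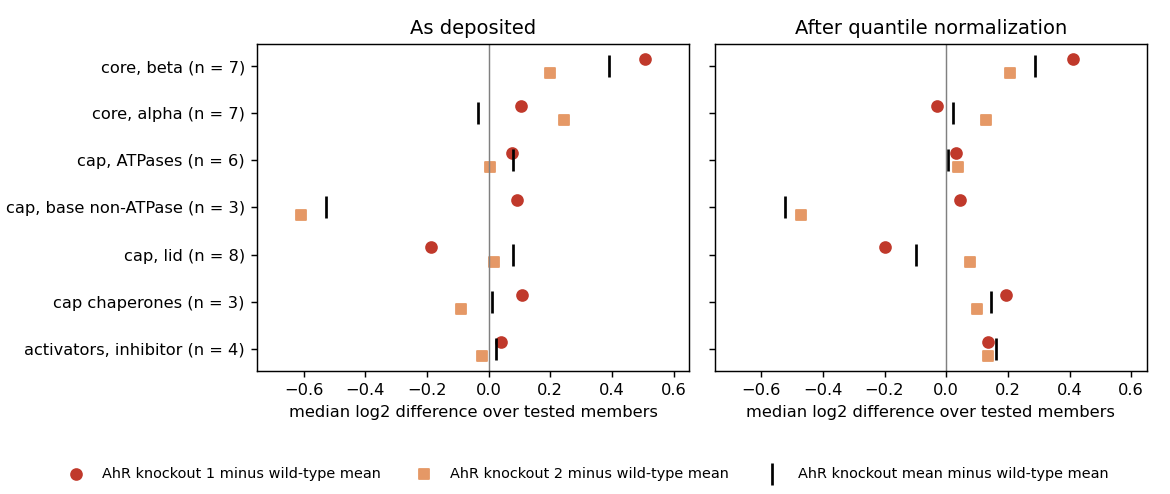
Median log2 difference over the tested members of each proteasome group (horizontal axis), as deposited (left) and after quantile normalization (right), with circles for AhR knockout 1 and squares for AhR knockout 2, each minus the wild-type mean, and bars for the mean of both. The bar of a group need not lie between its points, since medians do not add. Beta subunits have the highest bar in both panels (0.39 and 0.29), and the base subunits without ATPase activity have the lowest (-0.53 and -0.52). The circles of these base subunits lie at 0.093 and 0.044, and their squares at -0.61 and -0.47.

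The brightest genes differed in their median from dimmer ones on the arrays as deposited, with no steady trend across the 5 classes. From dim to bright the median log2 differences were 0.045, -0.025, -0.086, -0.091 and 0.14. In the brightest class, those above a mean signal of 1660, the median log2 difference over all 1487 genes was 0.14, with 0.13 in knockout 1 and 0.18 in knockout 2. The members had a median of 0.28 for the 21 in the brightest class, -0.29 for the 11 in the next and 0.010 for the 5 in the middle one. The single member in the class below that, Psmd9, differed by 0.42, and the dimmest class held 0 members. After quantile normalization the 2 brightest classes had medians of 0.024 (brightest) and 0.027 over all genes, and the members in them had 0.14 and -0.17. The gap between the members of these classes was smaller on that scale, with the same sign.

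**Figure D3:**
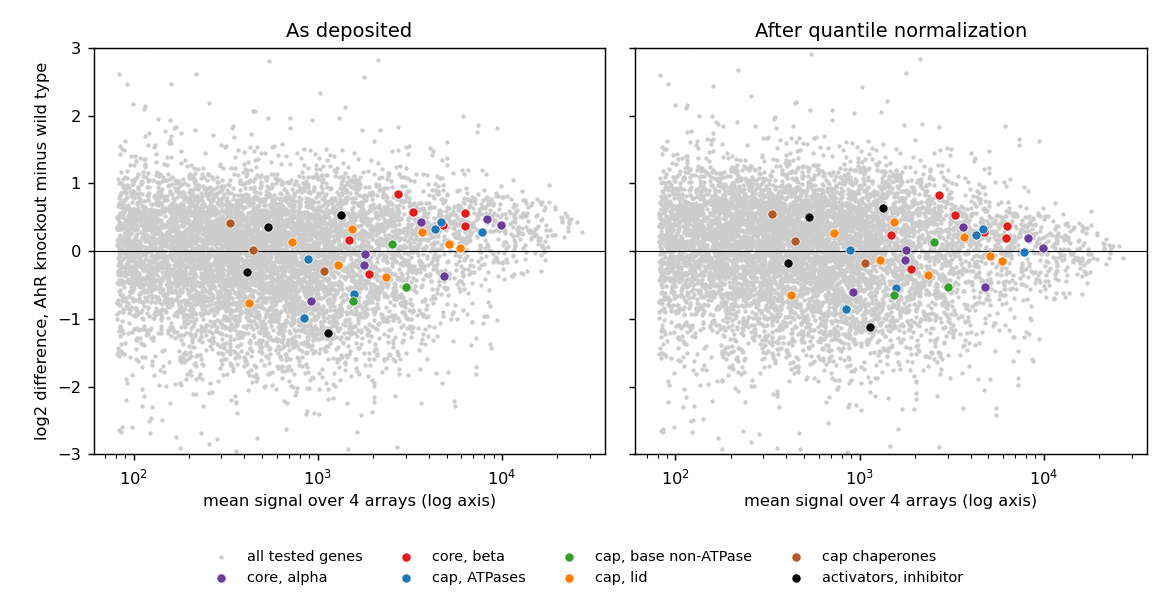
Log2 difference, AhR knockout minus wild type (vertical axis), against mean signal over the 4 arrays on a log axis, for all 7436 tested genes (grey) and the 38 proteasome members (coloured by group), as deposited (left) and after quantile normalization (right). The vertical axis is clipped, which hides 12 and 10 genes. Members above a signal of 1660 lie mostly above 0 at left and closer to 0 at right, and Psme4 is the lowest coloured point in both panels.

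Several members were read by more than a single probe set, and these did not always show the same direction. Above the signal filter, 17 members had at least 2 probe sets. In 11 of them all had the same sign, and in 6 the signs differed: Psma6, Psmb3, Psmc2, Psmc4, Psmd6 and Psmd11. Psmb3 is an example. Its second probe set read 4685 and 1475 in knockout and 3013 and 2553 in wild type, a log2 difference of -0.075 in place of 0.57. Knockout 1 was the highest of the 4 arrays there and knockout 2 the lowest. Psmc4 had 2214 and 838 in knockout and 1787 and 1357 in wild type at its second probe set, -0.19 in place of 0.43.

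The level of the second probe set as a share of the brightest was lowest in knockout 2 for 11 of the 17 genes. Its median was 42.2% in knockout 1 and 31.6% in knockout 2, against 46.9% in wild type 1 and 50.0% in wild type 2. Over all 2496 genes with such a pair, 47.8% were lowest in knockout 2, with a median of 40.6% there and between 45.7% and 46.8% in the other arrays. Psmc2 and Psmd4 are examples. For Psmc2 the share was 43.8% and 20.2% in knockout, against 46.9% and 39.1% in wild type. For Psmd4 it was 39.1% and 15.9% in knockout, against 26.1% and 28.0% in wild type. In the same array Gapdh signal at the 3' end was 11.9 times that at the 5' end, and whether this played a part was not tested. Psme4 held its direction at all of its probe sets, and Psmb6 and Psma2 have a single one.

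**Figure D4:**
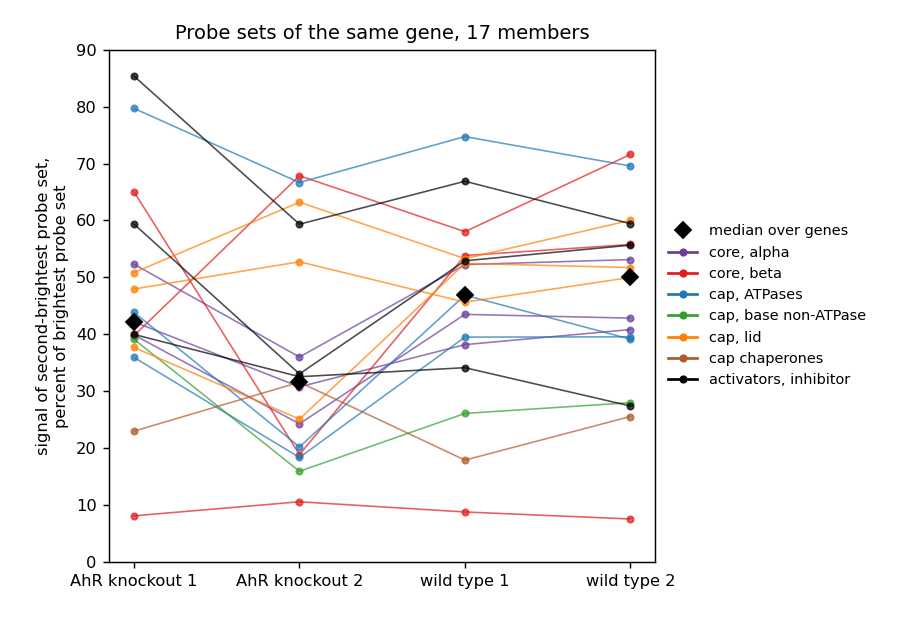
Signal of the second-brightest probe set as a percent of the brightest probe set of the same gene (vertical axis) on each array (horizontal axis), for the 17 proteasome members with at least 2 probe sets above the signal filter; lines join the arrays of a gene and diamonds mark the median. The diamond of AhR knockout 2 (31.6%) is the lowest of the 4, and 11 of the 17 lines have their lowest point there.

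Promoter sequence was searched for a loose pattern of the core of the antioxidant response element, through which NRF1 acts on proteasome genes. The core of the element that AhR binds and the common CCAAT box were searched for as well. RefSeq (build GRCm38.p6) gave a promoter for 32 of the 39 members, 34 promoters in all, and the 250 bases before each start were searched on both strands. The loose pattern, TGANNNNGC with N for any base, was found in 12 of the 34, or 35.3%, against 35.2% of 32851 mouse promoters. The core of the AhR binding element, GCGTG, was in 14, or 41.2%, against 28.2% of all. CCAAT was in 12, or 35.3%, against 33.8%. No overlap between these motifs was removed. A match is a description of the letters and not a site. Of the 4 beta subunits with a promoter, 3 held TGANNNNGC. Among the other groups it was in 2 of 7 alpha subunits, 2 of 5 ATPases and 1 of 3 other base subunits. It was in 1 of 6 lid subunits, 2 of 3 base chaperones and 0 of 4 in the group of activators. Lower members held it too, among them Psma4, Psmc6 and Psmd1, with log2 differences of -0.73, -0.99 and -0.74. The last 60 bases before the start are shown for the 3 beta subunits, because beta subunits had the highest median. They run in the direction of transcription, with the match in capitals.
Psmb3: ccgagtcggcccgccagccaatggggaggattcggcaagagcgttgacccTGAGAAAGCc
Psmb5: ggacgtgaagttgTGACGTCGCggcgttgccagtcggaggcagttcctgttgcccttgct
Psmb6: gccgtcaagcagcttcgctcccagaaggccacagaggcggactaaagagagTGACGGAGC
These lie at chr11:97703374-97703433 on the plus strand, chr14:54617996-54618055 on the minus strand and chr11:70525297-70525356 on the plus strand. The matches begin 10, 47 and 9 bases before the start. Psme4, the member with the largest difference, had no TGANNNNGC match and 2 GCGTG matches, which begin 220 and 140 bases before its start, within chr11:30771545-30771644 on the plus strand.
Psme4: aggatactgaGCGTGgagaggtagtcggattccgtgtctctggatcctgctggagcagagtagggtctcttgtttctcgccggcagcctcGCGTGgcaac

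Genes that act with the proteasome passed the test in no list. The interferon-inducible catalytic subunits, which replace those of the beta rings in immune cells, were 2 higher and 1 lower of 3 tested. Psmb9 read 343 and 187 in knockout, against 163 and 106 in wild type, a log2 difference of 0.87 ± 0.41 with limma adjusted p = 0.27. Psmb10 differed by 0.47 and Psmb8 by -0.35, with overlapping groups. Of 6 genes listed for assembly of the core, 5 were higher and 1 lower, with a median of 0.39. The lower gene, Akirin2, differed by -0.11 and separated downward, as did 26.7% of all tested genes. The 4 PAC chaperones, Psmg1, Psmg2, Psmg3 and Psmg4, all separated upward, as did 28.7% of all tested genes. Psmg3 read 657 and 714 in knockout, against 457 and 418 in wild type, a difference of 0.63 ± 0.35 with limma adjusted p = 0.34. Pomp, the chaperone of beta ring assembly, differed by 0.0027.

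Partners of the cap and the ubiquitin pathway were mostly lower. Of 7 tested partners of the cap, 2 were higher and 5 lower, with a median of -0.45, 0 past the test and 2 lower at an unadjusted p under 0.05, a threshold that 12.9% of all tested genes passed as lower. Ecpas, a proteasome scaffold known as ECM29, read 60.8 and 119 in knockout, against 198 and 257 in wild type, a log2 difference of -1.25 ± 0.40 with limma adjusted p = 0.14. Zfand5, known as an activator of the proteasome in mouse muscle, read 2196 and 2292 in knockout, against 3531 and 3941 in wild type, a difference of -0.73 ± 0.32 with limma adjusted p = 0.24. Uchl5, a deubiquitinase of the cap, and Ube3c, a ubiquitin ligase bound to it, differed by -0.80 and -0.45. Ubiquitin shuttles and the segregase that extracts ubiquitinated proteins gave 7 lower and 1 higher of 8 tested, at a median of -0.36. Rad23b, which carries ubiquitinated proteins to the cap, read 1468 and 598 in knockout, against 1907 and 2033 in wild type, a difference of -1.06 ± 0.45 with limma adjusted p = 0.23. Ubqln2, another shuttle, differed by -0.66, Ubqln1 by -0.43 and Vcp, the segregase, by -0.34. The median of all tested genes was 0.0055 on the same scale.

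The factors that drive proteasome genes did not pass either. Of 7 tested genes of this list 2 were higher and 5 lower, with a median of -0.27. Nfe2l1 itself read 1605 and 1574 in knockout and 1858 and 1315 in wild type, with both knockout arrays between the wild-type arrays and a log2 difference of 0.024. Nfe2l2, which encodes the related NRF2, read 1644 and 1841 in knockout, against 2167 and 3051 in wild type, a difference of -0.56 ± 0.35 with limma adjusted p = 0.39. Keap1, which directs NRF2 to degradation, differed by 0.57, and Ngly1, which activates NRF1 by removing its sugars, by -0.62. Maff, a partner factor, differed by -0.67 with overlapping groups, at 0.019 in knockout 1 and -1.36 in knockout 2. All 7 textbook targets of NRF2 were lower, with a median of -0.62 (-0.12 in knockout 1 and -0.94 in knockout 2). None passed the test. Txnrd1, thioredoxin reductase, was the 1 target of 7 with an unadjusted p under 0.05, where 12.9% of all tested genes were lower, and read 1662 and 920 in knockout, against 2181 and 3418 in wild type, a difference of -1.13 ± 0.41. Hmox1, Srxn1 and Slc7a11 differed by -0.80, -0.77 and -0.62. For Hmox1 the groups overlapped, with 0.023 in knockout 1 and -1.62 in knockout 2, each set against the wild-type mean.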

How the data were processed

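Amplified, biotin-labelled RNA was read on Affymetrix arrays of 1 colour, per the labels' protocols. The authors deposited signal intensity on a linear scale, made with MAS5 per the submitters' processing notes. The trimmed mean over the central 96% of probe sets was 499.9 on every array. Background correction and detection calls by the authors are not used here. The 4 arrays were grouped by title. Of 22690 probe sets, 64 were controls, 20380 had 1 gene symbol in the platform annotation, 691 several and 1555 none. Symbols were updated through gene identifiers to RefSeq of GRCm38.p6, which held 20351 of them.

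Values were converted to log2(signal + 16), which understates folds of dim genes. Genes in the top 60% by mean signal, 7436 with a mean of at least 81.1, were compared with limma 3.58.1 in R 4.3.3 (lmFit, eBayes with trend) without a block. Benjamini-Hochberg adjustment ran over all of them, with a threshold of 0.05. Each difference is knockout over wild type on the log2 scale, with limma's SE. Tested on simulated arrays (20 runs, 200 genes changed, noise independent between genes), 7.54% of calls were false. Promoters on chromosome 18 were not used. Figures were drawn with matplotlib 3.10.9.

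Members, gene lists and tests were chosen with earlier results of these data known. Text names members past the threshold, up to 4 of each group or list by smallest p, the catalytic subunits, Psmd4, Psmd14, the activators and every lower member, which made 34. The other 4 tested members, and genes of the lists beyond that rule, were named after their values were seen. Alternatives were quantile normalization, equal medians, a pseudocount of 1 or 64, a filter that kept the top 40% or all genes, means of probe sets, every probe set, eBayes without trend and robust, a block for the title number, an adjusted threshold of 0.10, a wider cap that takes in the chaperones, and each array left out, as deposited and after quantile normalization.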

Additional observations from a re-analysis of the deposited data

How the results depend on the processing

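No member was called higher under any alternative run. Members called lower were 0 as deposited, after quantile normalization, with equal medians, other pseudocounts, filters, probe set choices or eBayes options, and at an adjusted p under 0.10. They were 2 with the title number as a block (Psme4, limma adjusted p = 0.0070, and Psmc6, 0.030). In that fit 966 of all 7436 tested genes were called lower. Titles number the mice 1 and 2 in both genotypes without a stated litter, batch or day. Differences between arrays 1 and 2 correlated between genotypes at r = 0.35 across 7436 genes and 0.67 across 38 members, which is no pairing by design, and the block raised all calls to 1406, against 71. Leaving out an array gave 0 to 3 members called lower and 0 to 5 higher at an unadjusted p under 0.05, which equal medians made 2. Psmd2, Psmd7 and Psma4 passed without knockout 1 (-1.15, -1.21 and -1.20), and Psmc6 and Psme4 without knockout 2 (-1.85 and -1.80). After quantile normalization the differences without knockout 1 were -1.09, -1.07 and -1.02 for Psmd2, Psmd7 and Psma4. Without knockout 2 they were -1.75 each for Psmc6 and Psme4. In these fits the lone knockout array is assumed to vary like the wild-type ones, and as deposited 11.1% and 10.8% of all genes passed as lower. Without the signal filter 1 gene of all passed, after quantile normalization 26, and with a pseudocount of 1, the top 40% filter or every probe set 43, 20 and 30.

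The core median of 0.38 was 0.19 after quantile normalization, 0.19 with the mean of probe sets, 0.11 with every probe set and between 0.11 and 0.38 with an array left out. The cap median of 0.047 was -0.15 with every probe set and between -0.15 and 0.074 with an array left out. The gap between core and cap within arrays, 0.70, was 0.18 with the mean of probe sets, 0.59 with every probe set and between 0.28 and 1.07 with an array left out. Equal medians moved the median of all genes to 0.089.

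Of 38 tested members, 19 kept their sign under every alternative. None of the other 19 passed on the side it turned to. Filters, eBayes options and the block leave each difference unchanged. With every probe set, only the brightest of each gene was compared, so none of these settings could turn a sign. Psmb3 and Psmc4 are among the 19 that kept their sign, though their second probe sets differed by -0.075 and -0.19. After quantile normalization Psma1 was 0.023, Psmc2 -0.0054, Psmc5 0.015, Psmd6 -0.073 and Psmd11 -0.14, and with equal medians Psma1 was 0.051. The mean of probe sets gave Psma6 -0.34, Psmd6 -0.27 and Psmd11 -0.016. Leaving out an array, as deposited or after quantile normalization, gave ranges of -0.32 to 0.33 for Psma1, -0.030 to 0.61 for Psma6, -0.51 to 0.12 for Psma7, -1.04 to 0.37 for Psmb2 and -0.043 to 0.53 for Psmb4. They were -0.084 to 0.48 for Psmc2, -0.0014 to 0.54 for Psmc3, -0.31 to 0.15 for Psmc5 and -1.85 to 0.044 for Psmc6. For the cap they were -1.15 to 0.093 (Psmd2), -0.12 to 0.45 (Psmd3), -0.19 to 0.46 (Psmd4), -0.65 to 0.12 (Psmd5), -0.49 to 0.61 (Psmd6), -0.0030 to 0.45 (Psmd8), -0.089 to 0.21 (Psmd10), -0.17 to 0.14 (Psmd11), -0.38 to 0.079 (Psmd12) and -0.74 to 0.037 (Psmd14). The cause of these turns was not tested. The number of arrays limits the precision.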
